A study of Homo sapiens with 6 samples.

Results

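The genes described here encode 9 components of the PI3K and AKT pathway: the AKT kinases AKT1 and AKT2, the PI3K catalytic subunits PIK3CA and PIK3CB, the PI3K regulatory subunits PIK3R1 and PIK3R3, the AKT-activating kinase PDPK1, and the phosphatases INPP4B and PHLPP1. They were chosen by name, with earlier results of these data known. All 9 were found among the 20333 gene intervals of the deposited count table. Each passed the filter on low counts, which left 19902 genes to test. Nascent transcription was measured by PRO-seq, in which polymerases already engaged on DNA add labelled nucleotides in permeabilised cells, so that a gene's reads report transcribing polymerase and not stored mRNA. The assay was run on T47D, a long-established line of luminal breast cancer labelled ER-positive and HER2-negative, which is known to carry an activating mutation of PIK3CA; 1 line stands for the disease here. All cells were grown in growth factor-complete medium and exposed for 5 h. The control arm received DMSO, the solvent. The GDC0068 arm received 500 nM of a catalytic AKT inhibitor, and the arm labelled Degrader received 100 nM of INY-05-040, which removes the AKT proteins. Each arm had 2 libraries, described as coming from 2 independent experiments. The p-values rest on the spread between these few samples, which the fit draws for each gene towards a trend over all genes tested.

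In this pathway, class I PI3K is a dimer of a catalytic and a regulatory subunit that receptor tyrosine kinases bring to the plasma membrane. It makes the lipid PIP3, to which AKT and the kinase PDPK1 both bind. PDPK1 then phosphorylates the activation loop of AKT, and the mTORC2 complex phosphorylates its tail. The signal is undone by lipid phosphatases such as INPP4B and by phosphatases that act on AKT itself, among them PHLPP1. Active AKT holds FOXO transcription factors out of the nucleus, and in breast cells loss of AKT activity is known to raise transcription of several receptors and adaptors upstream of PI3K.

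The libraries held 25371819 to 32192576 counts in genes, and the lowest count of any of the 9 genes in any library was 1490, at which counting error alone is 2.59%. Levels are given as CPM, the counts of a gene per 1000000 counts of its library after scaling. All 9 markers of luminal breast epithelium, including ESR1, GATA3 and KRT8, were measured in every library, at 4.08 CPM (TFF1) or above. Of the 16 markers of basal, mesenchymal, immune or endothelial cells, CD68 was measured, at 55.1 to 83.6 CPM, and the other 15 were not analysed here.

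Per kilobase of interval, AKT1 was the most heavily transcribed of the 9 genes in DMSO, at 8.79 ± 0.14 CPM per kb (SD, n = 2, as for every mean ± SD here). AKT2 (1.80 ± 0.064), PDPK1 (1.79 ± 0.057) and PIK3CB (1.74 ± 0.011) followed on the same scale and did not differ from their neighbour in this order beyond these SDs. INPP4B (1.20 ± 0.053) and PIK3R3 (1.15 ± 0.052) came next and overlapped, as did PIK3CA (1.02 ± 0.021) and PIK3R1 (1.02 ± 0.020). PHLPP1, spread over 265.0 kb, was lowest at 0.314 ± 0.0030 CPM per kb. The counts do not separate polymerase paused near the start site from polymerase in the gene body, and paused polymerase weighs more in a short interval such as the 26.4 kb of AKT1. The INPP4B interval is 5.81% of its RefSeq gene and begins 68.5 kb from the nearest RefSeq start site. Its place in this order speaks for that part only. Under Degrader, PIK3CA (1.45 ± 0.054 CPM per kb) stood above PIK3R3 (1.04 ± 0.049) and PIK3R1 (0.920 ± 0.047), both of which it had been below or level with in DMSO. These 3 genes stood in the same order under GDC0068, at 1.26 ± 0.015, 1.09 ± 0.073 and 0.980 ± 0.0033 CPM per kb.

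**Figure D1:**
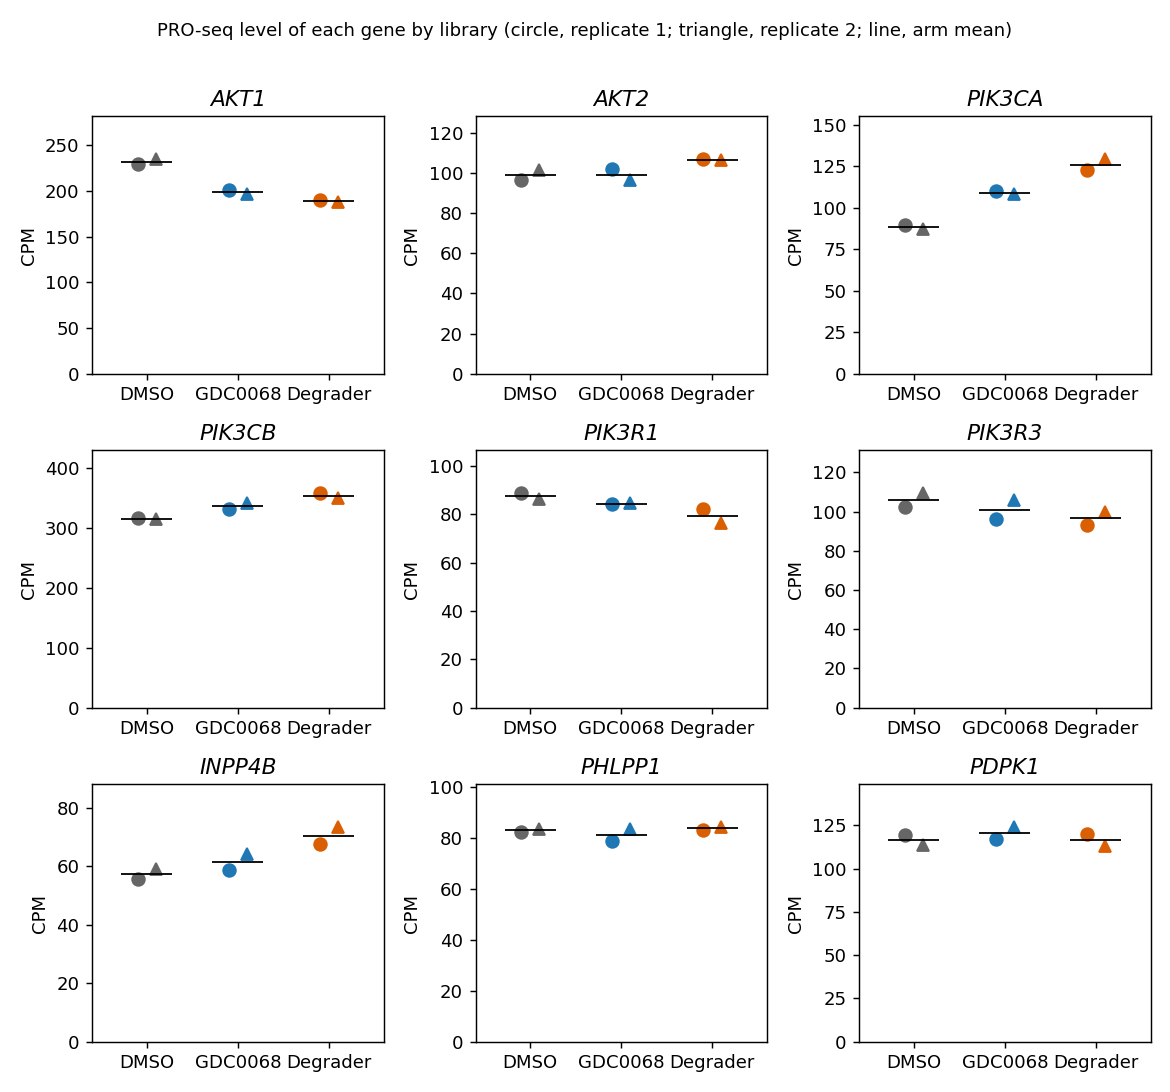
Level of each of the 9 genes in each library, in CPM on axes that start at 0, with 1 point per library, circles for replicate 1, triangles for replicate 2 and a line at the mean of each arm. AKT1 is highest in the 2 DMSO libraries, and PIK3CA steps from about 88.3 CPM in DMSO to 109 CPM under GDC0068 and 126 CPM under Degrader.

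How transcription of the pathway's own components responds to loss of AKT function was read from each drug arm beside DMSO and from the 2 drug arms beside each other. Under Degrader, PIK3CA, INPP4B and PIK3CB rose and AKT1 fell; under GDC0068, PIK3CA rose and AKT1 fell. A gene was called at an adjusted p under 0.05, from edgeR's quasi-likelihood test with Benjamini-Hochberg adjustment over all 19902 genes. The adjusted p-values below come from this fit unless another fit, setting or omitted library is named. Under Degrader 4 of the 9 genes were called, 3 higher and 1 lower, where 15.3% of all genes tested were called (7.39% higher, 7.88% lower). Under GDC0068 2 of the 9 were called, 1 in each direction, where 3.58% of all genes were called (1.7% higher, 1.88% lower). These shares of all genes include genes with few counts. With only genes at a mean of at least 10 CPM fitted, 4 of the 9 and 2884 of all genes were called under Degrader. For GDC0068 these counts were 2 and 667. After scaling, 13897 genes averaged 10 CPM or more. The median log2 fold change of the 9 genes was 0.01 under Degrader and 0.00 under GDC0068, where all genes had medians of -0.00 and 0.01. The 2 arms' libraries did not overlap for 7 of the 9 genes under Degrader and for 4 of 9 under GDC0068, where 58.6% and 50.1% of all genes did not overlap. Both contrasts use the same DMSO libraries, so their values are given side by side and not as independent evidence. With the replicate number as a block, 7 of the 9 were called under Degrader, where 30.7% of all genes were called, and 2 of 9 under GDC0068, where the share was 17.8%. These included every one of the 9 called in the main fit. Leaving out 1 library of the arms compared gave fewer calls among all genes as well as among the 9, as set out in the last section.

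**Figure D2:**
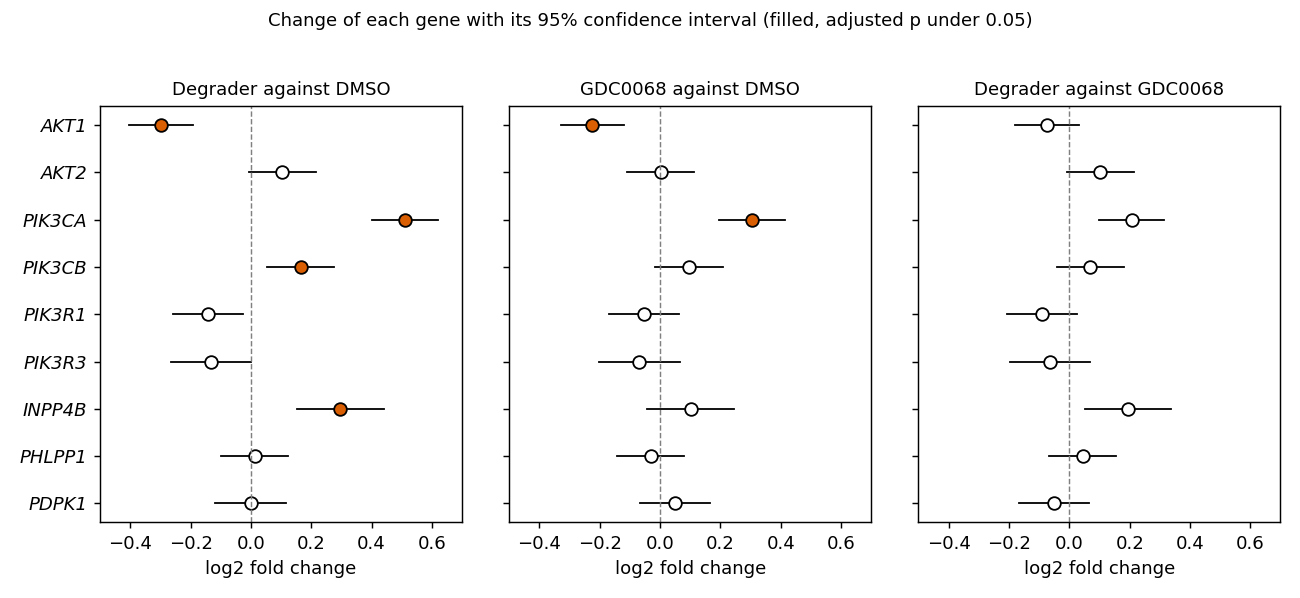
Log2 fold change of the 9 genes in the 3 comparisons, as points with 95% confidence intervals; filled points have an adjusted p under 0.05. In the left panel PIK3CA (0.51), INPP4B (0.30) and PIK3CB (0.17) lie to the right of 0 and AKT1 (-0.30) to the left, and in the panel of Degrader against GDC0068 no point is filled.

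Of the PI3K catalytic subunits, PIK3CA rose under both drugs and PIK3CB under Degrader. PIK3CA (ENSG00000121879, chromosome 3, 179148357 to 179235098, plus strand) encodes p110-alpha, the subunit most often mutated in breast cancer. Its level was 89.6 and 87.0 CPM in the DMSO libraries, 110.1 and 108.2 CPM under GDC0068, and 122.6 and 129.2 CPM under Degrader. The 3 arms did not overlap, with DMSO lowest and Degrader highest. PIK3CA rose by 0.51 on the log2 scale under Degrader (SE 0.050, adjusted p = 1.67e-04), which is 42.5% more, and by 0.30 under GDC0068 (SE 0.050, adjusted p = 0.0113), which is 23.5% more. The Degrader call was kept without each of the 6 libraries in turn (adjusted p at most 0.00403). The GDC0068 call was lost without either DMSO library or either GDC0068 library, when the log2 fold change ranged from 0.28 to 0.32 and the adjusted p from 0.0501 to 0.0783.

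PIK3CB (ENSG00000051382, chromosome 3, 138654018 to 138834928, minus strand) encodes p110-beta, the other widely expressed catalytic subunit. It had 316.5 and 313.7 CPM in DMSO, 331.5 and 341.7 CPM under GDC0068, and 357.2 and 349.4 CPM under Degrader. The arms again did not overlap and stood in the same order as for PIK3CA, over a narrower range. PIK3CB rose by 0.17 on the log2 scale under Degrader (SE 0.051, adjusted p = 0.0491), and its difference of 0.10 under GDC0068 was not called (SE 0.051, adjusted p = 0.329). The Degrader call of the main fit was marginal: it was lost with DESeq2's size factors (adjusted p = 0.0514) and with no filter on low counts (0.0544). It was also lost without either DMSO or either Degrader library (log2 fold change 0.15 to 0.17). With the replicate block the Degrader difference was called (adjusted p = 6.62e-04), where 30.7% of all genes were called.

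The sequence around the start sites is shown for these catalytic subunits and for the AKT genes, since within each pair the genes changed by different amounts. RefSeq promoters of GRCh38.p14, 250 bases before to 50 after a start site, were matched to the deposited intervals; 8 of the 9 genes had one within 100 bp of the interval's start, and for INPP4B the nearest was 68.5 kb away. Capitals mark 2 motifs searched on both strands, the FOXO element GTAAACA and the GC box GGGCGG, each also as its reverse complement; matches of the GC box may overlap each other. Lines run 5′ to 3′ along the gene for chr3:179148107-179148406 (plus strand), chr3:138834879-138835178 (minus), chr14:104795699-104795998 (minus) and chr19:40285296-40285595 (minus).
PIK3CA: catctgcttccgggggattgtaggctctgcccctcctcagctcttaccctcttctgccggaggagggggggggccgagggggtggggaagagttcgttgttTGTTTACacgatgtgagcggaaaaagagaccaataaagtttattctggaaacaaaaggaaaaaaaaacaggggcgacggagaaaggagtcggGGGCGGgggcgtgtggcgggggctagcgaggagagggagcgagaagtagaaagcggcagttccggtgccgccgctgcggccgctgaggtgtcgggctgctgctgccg
PIK3CB: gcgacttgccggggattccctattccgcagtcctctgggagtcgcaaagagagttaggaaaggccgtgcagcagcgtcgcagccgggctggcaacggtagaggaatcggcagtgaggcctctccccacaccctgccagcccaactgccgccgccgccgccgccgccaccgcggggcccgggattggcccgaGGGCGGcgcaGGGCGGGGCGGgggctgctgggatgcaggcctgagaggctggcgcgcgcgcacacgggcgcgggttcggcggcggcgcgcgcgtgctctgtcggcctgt
AKT1: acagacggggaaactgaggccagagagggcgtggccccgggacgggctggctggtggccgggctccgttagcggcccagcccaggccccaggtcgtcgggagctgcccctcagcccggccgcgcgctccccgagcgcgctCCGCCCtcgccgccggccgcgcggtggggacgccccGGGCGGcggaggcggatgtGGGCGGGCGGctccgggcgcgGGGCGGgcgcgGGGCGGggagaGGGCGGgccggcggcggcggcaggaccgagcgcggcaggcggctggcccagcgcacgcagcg
AKT2: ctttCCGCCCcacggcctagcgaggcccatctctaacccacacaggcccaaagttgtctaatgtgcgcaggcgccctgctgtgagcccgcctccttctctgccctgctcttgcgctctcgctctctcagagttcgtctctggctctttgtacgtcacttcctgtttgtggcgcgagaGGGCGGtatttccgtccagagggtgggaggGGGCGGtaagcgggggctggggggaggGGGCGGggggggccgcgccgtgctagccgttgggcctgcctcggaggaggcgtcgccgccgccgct

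Of the 8 promoters, that of PIK3CA alone held the FOXO element, with its first base at -149 from the start site and on the strand opposite to the gene; 3.42% of the 35116 RefSeq promoters of this length hold it. The other 7 had no match to these letters in this window, which says nothing of other sites. GC boxes were found in all 8, with 1 match in PIK3CA, 3 in PIK3CB, 4 in AKT2 and 7 in AKT1, and in 45.0% of all promoters. The E-box CACGTG was in none of the 8, and in 7.26% of all promoters. GC content was 60.7% in the PIK3CA promoter, the lowest of the 8, and 83.3% in that of AKT1, the highest. These matches describe the sequence; binding was not measured.

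The regulatory subunits were not called under either drug. PIK3R1 (ENSG00000145675, chromosome 5, 68215762 to 68301821, plus strand) encodes p85-alpha and shorter forms that hold the catalytic subunit stable and inhibited until a receptor binds. It had 88.7 and 86.3 CPM in DMSO, 84.2 and 84.6 CPM under GDC0068, and 82.1 and 76.3 CPM under Degrader. The arms did not overlap, in the reverse order to the catalytic subunits. Its log2 fold change was -0.14 under Degrader (SE 0.053, adjusted p = 0.0921) and -0.05 under GDC0068 (SE 0.053, adjusted p = 0.632). With the replicate block the Degrader difference was called (adjusted p = 0.00873).

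PIK3R3 (ENSG00000117461, chromosome 1, 46040140 to 46132629, minus strand) encodes p55-gamma, a shorter regulatory subunit. Its level was 102.5 and 109.3 CPM in DMSO, 96.2 and 105.7 CPM under GDC0068, and 93.4 and 99.8 CPM under Degrader. Replicate 2 was above replicate 1 in every arm, so that GDC0068 overlapped both other arms while DMSO and Degrader were apart. The log2 fold change was -0.13 under Degrader (SE 0.061, adjusted p = 0.169; -0.14 and -0.13 in replicates 1 and 2) and -0.07 under GDC0068 (SE 0.061, adjusted p = 0.576). With the block the Degrader difference was called (adjusted p = 0.00728). The interval covers 68.6% of the RefSeq gene, which has a further start site upstream.

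As a description within each library, the ratio of PIK3CA to PIK3R1 in CPM per kb was 1.00 and 1.00 in DMSO, 1.30 and 1.27 under GDC0068, and 1.48 and 1.68 under Degrader. For PIK3CA to PIK3CB it was 0.590 and 0.579 in DMSO, against 0.692 and 0.660 with GDC0068 and 0.716 and 0.771 with Degrader. In both ratios the arms were separate, with DMSO lowest. The ratio of PIK3R1 to PIK3R3 overlapped between arms, at 0.889 ± 0.057 in DMSO, 0.900 ± 0.057 under GDC0068 and 0.883 ± 0.087 under Degrader.

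PDPK1 (ENSG00000140992, chromosome 16, 2538021 to 2603188, plus strand), the kinase that activates AKT at the membrane, was not called in either contrast. It had 119.2 and 113.9 CPM in DMSO, 117.4 and 123.9 CPM under GDC0068, and 120.0 and 113.1 CPM under Degrader. All 3 arms overlapped. The log2 fold change was -0.00 under Degrader (SE 0.053, 95% interval -0.12 to 0.12, adjusted p = 0.994) and 0.05 under GDC0068 (SE 0.053, 95% interval -0.07 to 0.17, adjusted p = 0.653). Its interval overlaps 5 others in the table, and the near-identical pseudogene PDPK2P lies close by, so that its reads could be split between them.

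Of the AKT genes, AKT1 was called under both drugs and AKT2 under neither in the main fit. AKT1 (ENSG00000142208, chromosome 14, 104769349 to 104795733, minus strand) had 229.4 and 234.5 CPM in DMSO, 200.4 and 196.6 CPM under GDC0068, and 190.0 and 187.4 CPM under Degrader. No arms overlapped, and both drugs were below DMSO. AKT1 fell by 18.7% under Degrader (log2 fold change -0.30, SE 0.048, adjusted p = 0.00227), with -0.27 and -0.32 in replicates 1 and 2. It fell by 14.4% under GDC0068 (log2 fold change -0.22, SE 0.048, adjusted p = 0.0309). The Degrader call was kept without each library in turn (adjusted p at most 0.0341), whereas the GDC0068 call was lost without any 1 of the 6 libraries (log2 fold change -0.24 to -0.21, adjusted p 0.0504 to 0.155) and in the fit of the 4 libraries compared (0.0524). An interval on the opposite strand, AL583722.2, covers 3.50% of AKT1, and the use of strand is not given in the sources used here.

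AKT2 (ENSG00000105221, chromosome 19, 40230317 to 40285337, minus strand), the form tied to insulin signalling, had 96.7 and 101.7 CPM in DMSO, 101.8 and 96.8 CPM under GDC0068, and 106.9 and 106.3 CPM under Degrader. Both Degrader libraries lay above the other 4, which overlapped. The log2 fold change was 0.10 under Degrader (SE 0.051, 95% interval -0.01 to 0.22, adjusted p = 0.195) and 0.00 under GDC0068 (SE 0.051, 95% interval -0.11 to 0.11, adjusted p = 0.993). With the replicate block the Degrader difference was called (adjusted p = 0.0438). Intervals on the same strand, AC118344.1 and MIR641, cover 3.57% and 1.99% of AKT2, and reads there are not told apart by strand. The ratio of AKT1 to AKT2 in CPM per kb was 4.95 and 4.81 in DMSO, 4.10 and 4.24 under GDC0068, and 3.71 and 3.68 under Degrader, so that each arm was apart from the others.

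**Figure D3:**
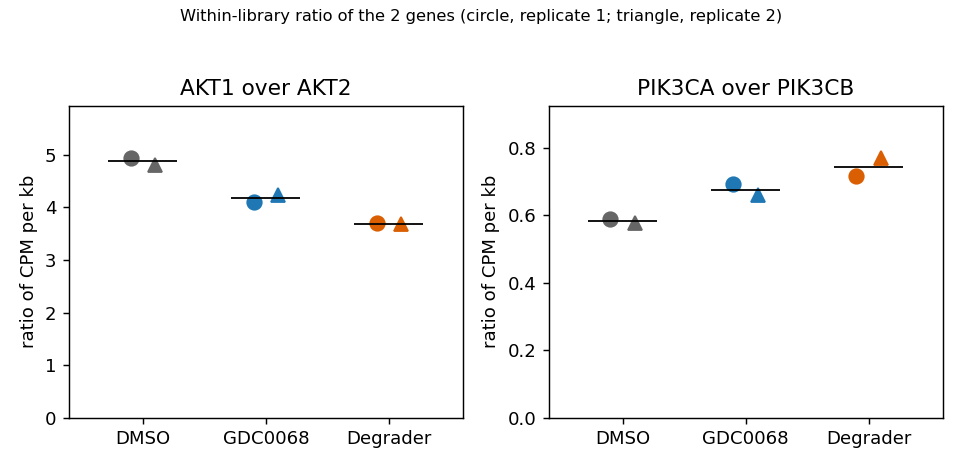
Ratio of AKT1 to AKT2 (left) and of PIK3CA to PIK3CB (right) within each library, computed from CPM per kb on axes that start at 0, with lines at arm means. The first ratio is 4.88 in DMSO and 3.69 under Degrader on average, and the second 0.585 and 0.743.

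Of the phosphatases, INPP4B was called under Degrader and PHLPP1 under neither drug. INPP4B (ENSG00000109452, chromosome 4, 142426481 to 142474325, minus strand) removes a phosphate from PI(3,4)P2, the lipid that also recruits AKT. It had 55.6 and 59.1 CPM in DMSO, 58.6 and 64.3 CPM under GDC0068, and 67.6 and 73.3 CPM under Degrader. Both Degrader libraries were above the other 4, and DMSO and GDC0068 overlapped. INPP4B rose by 0.30 under Degrader (SE 0.065, adjusted p = 0.0112), and its difference of 0.10 under GDC0068 was not called (SE 0.066, adjusted p = 0.423; 0.025 to 0.16 with 1 library left out). The Degrader call was lost without DMSO replicate 1 (log2 fold change 0.25, adjusted p = 0.118) and without Degrader replicate 2 (0.23, adjusted p = 0.133). The deposited interval spans 47.8 kb, which is 5.81% of the 823 kb RefSeq gene, so the value speaks for that part of the gene only.

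PHLPP1 (ENSG00000081913, chromosome 18, 62715463 to 62980433, plus strand), which dephosphorylates the tail of AKT, had 82.6 and 83.7 CPM in DMSO, 79.1 and 83.6 CPM under GDC0068, and 83.4 and 84.3 CPM under Degrader. The 3 arms overlapped. Its log2 fold change was 0.01 under Degrader (SE 0.051, 95% interval -0.10 to 0.12, adjusted p = 0.898) and -0.03 under GDC0068 (SE 0.051, 95% interval -0.14 to 0.08, adjusted p = 0.788).

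Whether removal of AKT and inhibition of its activity differ in these genes was examined by setting Degrader against GDC0068, whose doses differ and had been chosen for like suppression of downstream signalling. edgeR called 0 of the 9 genes, where 0.266% of all genes were called; 2 had an unadjusted p under 0.05, and DESeq2 and limma voom also called 0. PIK3CA was higher under Degrader by 0.21 on the log2 scale (SE 0.049, 95% interval 0.10 to 0.31, adjusted p = 0.105), by 0.16 and 0.26 in replicates 1 and 2. INPP4B was higher by 0.20 (SE 0.065, 95% interval 0.05 to 0.34, adjusted p = 0.217), by 0.21 and 0.19 in the replicates. Neither passed the threshold, and with the replicate block both did (adjusted p of 7.44e-04 for PIK3CA and 0.00521 for INPP4B), where 10.4% of all genes were called. For AKT1 the difference was -0.07 (95% interval -0.18 to 0.03, adjusted p = 0.516) and for AKT2 0.10 (95% interval -0.01 to 0.21, adjusted p = 0.391). The other 5 genes had differences from -0.09 (PIK3R1) to 0.07 (PIK3CB). The drugs' libraries did not overlap for 6 of the 9 genes, where 45% of all genes were separate.

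The pathway around the 9 genes was described through 6 lists of 103 further genes, of which 86 were tested. These lists too were chosen with earlier results of these data known, so the shares called are a description only. Under Degrader 25 of the 86 were called, 15 higher and 10 lower (29.1%, against the 15.3% of all genes). Under GDC0068 6 were called, 3 in each direction (6.98%, against 3.58%). The fit at a mean of at least 10 CPM leaves out listed genes below that level, such as FOXO4, SGK1 and PIK3CD. It called 25 and 6 of the rest under Degrader and GDC0068, beside 2884 and 667 of all genes. After scaling, 13897 of all genes averaged 10 CPM or more. The median log2 fold change over the 86 genes was -0.02 under Degrader and -0.03 under GDC0068. With the replicate block the counts were 42 (19 higher, 23 lower) and 24 (10 higher, 14 lower), where 30.7% and 17.8% of all genes were called in that fit, and without 1 library at a time they fell to as few as 13 under Degrader (without Degrader replicate 2) and 2 under GDC0068 (without any 1 of the DMSO or GDC0068 libraries).

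Among 5 other PI3K subunits, PIK3C3, the class III kinase of endosomes and autophagy, rose under Degrader from 46.7 and 49.7 CPM to 63.6 and 66.4 CPM (log2 fold change 0.43, SE 0.058, adjusted p = 8.41e-04), and the other 4 were not called. Of 21 other phosphatase genes, PHLPP2, the relative of PHLPP1, fell by 0.30 on the log2 scale (SE 0.050, adjusted p = 0.00280) and INPP5K, a lipid 5-phosphatase, rose by 0.20 (adjusted p = 0.0480). The INPP5K call was lost in the limma voom fit (adjusted p = 0.0539), with DESeq2 (adjusted p = 0.119), with raw library sizes (adjusted p = 0.0541) and without any 1 of the DMSO or Degrader libraries (0.17 to 0.22, adjusted p up to 0.263).

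Of the 6 mTORC2 genes tested, DEPTOR, an inhibitory partner of mTOR, rose under Degrader from 74.2 and 69.4 CPM to 112.9 and 113.3 CPM (log2 fold change 0.65, SE 0.053, adjusted p = 8.19e-05) and under GDC0068 to 95.1 and 99.2 CPM (0.43, SE 0.053, adjusted p = 0.00318). Both calls were kept without each library in turn. RICTOR, the scaffold that defines mTORC2, rose under Degrader from 79.6 and 88.5 CPM to 111.4 and 118.2 CPM (0.45, SE 0.059, adjusted p = 7.52e-04). PRR5, another mTORC2 subunit, fell by 0.48 (SE 0.086, adjusted p = 0.00443), a call lost without DMSO replicate 1 (-0.37, adjusted p = 0.0508). Under GDC0068 neither was called (RICTOR 0.20, adjusted p = 0.0898; PRR5 -0.24, adjusted p = 0.152), and with the block both were (8.44e-04 and 0.00122).

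Of 15 adaptors and regulators, 4 rose and 1 fell under Degrader. PIK3IP1, a membrane protein that inhibits the PI3K catalytic subunit, rose from 8.96 and 8.75 CPM to 14.4 and 15.8 CPM under Degrader (log2 fold change 0.77, SE 0.10, adjusted p = 9.31e-04). Under GDC0068 it reached 11.8 and 12.7 CPM (0.47, adjusted p = 0.0376), a call lost with DESeq2 (adjusted p = 0.0536), in the fit of 4 libraries (adjusted p = 0.0575), and without either DMSO library, either GDC0068 library or Degrader replicate 2 (0.41 to 0.52, adjusted p up to 0.177). IRS2, the insulin receptor adaptor that brings PI3K to the membrane, went from 11.1 and 10.9 CPM in DMSO to 21.9 and 19.1 CPM under GDC0068 and 27.7 and 30.3 CPM under Degrader. APPL2, an endosomal adaptor that binds AKT, rose by 0.33 under Degrader (adjusted p = 0.00243), and HSP90AB1, a chaperone with AKT among its clients, fell by 0.30 (adjusted p = 0.00281).

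Of 28 genes encoding direct AKT substrates, 5 rose and 4 fell under Degrader. CDKN1B, the cell cycle inhibitor p27, rose by 0.49 (SE 0.073, adjusted p = 0.00158) and kept its call without each library. FOXO4 rose by 0.87 from 2.65 and 2.83 CPM to 4.53 and 5.49 CPM (SE 0.17, adjusted p = 0.00716), a call lost without DMSO replicate 1 or Degrader replicate 2 (log2 fold change 0.72 at the lowest, adjusted p up to 0.0827). ACLY, which makes acetyl-CoA for lipid synthesis, fell by 0.20 under Degrader and by 0.27 under GDC0068 (adjusted p of 0.0259 and 0.0207), calls that each of the 4 libraries compared could end when left out (adjusted p up to 0.207 and 0.160). FOXO3, a forkhead factor that AKT keeps out of the nucleus, rose by 0.25 under Degrader (adjusted p = 0.0103). TBC1D1, a regulator of glucose transporter traffic, fell from 83.7 and 84.2 CPM to 68.7 and 65.5 CPM under Degrader (log2 fold change -0.32, SE 0.059, adjusted p = 0.00462) and to 66.3 and 73.4 CPM under GDC0068 (-0.26, adjusted p = 0.0361). YBX1, an RNA- and DNA-binding protein, fell by 0.30 under Degrader (adjusted p = 0.0128). Omitting 1 library ended these calls too: for FOXO3 DMSO replicate 2 or Degrader replicate 1 (adjusted p up to 0.0944), for TBC1D1 Degrader replicate 2 under Degrader (0.0535) and any of the 4 libraries compared under GDC0068 (up to 0.166), and for YBX1 any of the 4 libraries compared (up to 0.0996, with log2 fold changes of -0.31 to -0.30 over all 6 omissions).

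Of 11 related AGC kinases, 2 rose and 3 fell under Degrader. SGK3, a kinase with substrates in common with AKT, rose by 0.31 (SE 0.056, adjusted p = 0.00440), a call lost without Degrader replicate 2 (0.27, adjusted p = 0.0575). PKN2 rose by 0.19 (adjusted p = 0.0368), a call lost with DESeq2 (adjusted p = 0.0857) and without DMSO replicate 1 or either Degrader library (adjusted p up to 0.294). The 3 that fell were PRKCD and PRKCA, kinases of the protein kinase C family (-0.35 and -0.25, adjusted p of 0.0212 and 0.0265), and RPS6KA1, a kinase downstream of ERK (-0.26, adjusted p = 0.0152). PRKCA also fell under GDC0068, from 105.4 and 119.6 CPM to 86.9 and 95.7 CPM (-0.30, adjusted p = 0.0356). These calls were lost without DMSO replicate 1 or Degrader replicate 1 for PRKCD (adjusted p up to 0.212), without DMSO replicate 2 or either Degrader library for PRKCA (up to 0.185, with -0.16 without DMSO replicate 2; without any 1 of the DMSO or GDC0068 libraries under GDC0068, up to 0.195), and without either DMSO library or Degrader replicate 2 for RPS6KA1 (up to 0.121).

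**Figure D4:**
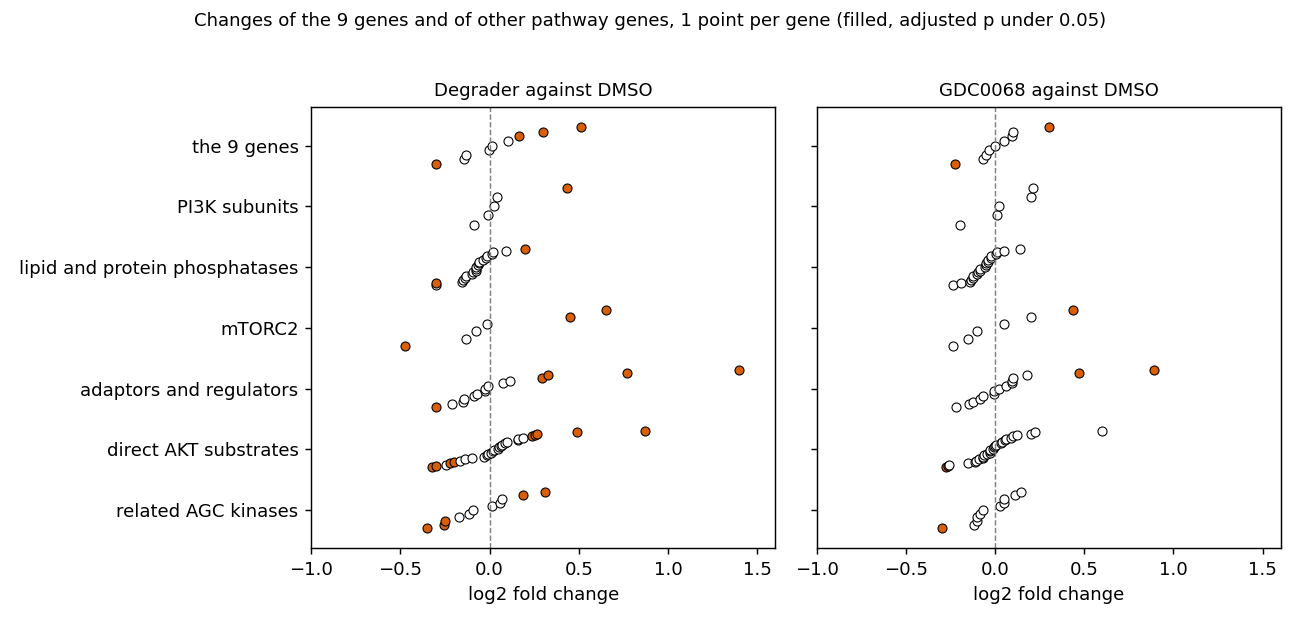
Log2 fold change of the 9 genes and of the 86 further pathway genes by list, with 1 point per gene and filled points at an adjusted p under 0.05, for Degrader (left) and GDC0068 (right) against DMSO. Filled points lie on both sides of 0 in most lists of the left panel, with IRS2 (1.40) farthest to the right.

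Genes with the most similar pattern to the AKT genes over the 6 libraries were sought among 13896 genes averaging 10 CPM or more, by the root mean square difference of log2 CPM after centring each gene on its mean. Nearest to AKT1 were SEMA3C (0.012), POLR1B (0.013) and RSKR (0.014), with log2 fold changes under Degrader of -0.28, -0.32 and -0.31; the nearest of the other 8 genes was PIK3R1, at 0.084. Nearest to AKT2 were ACSS2 (0.0081), CYB5B (0.013) and LMTK2 (0.015), and among the other 8 genes PIK3CB, at 0.057. With 6 libraries and this many candidates, such distances are a description only.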

How the data were processed

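PRO-seq counts of 6 T47D libraries were used as deposited: whole-number raw counts per gene interval, 1 column per library. The submitters' processing notes name cutadapt 1.14, Bowtie 1.2.2, SAMtools 1.3.1, HISAT2 2.2.1 and limma, and the builds dm3, hg38 and GRCh38, with no roles; the role of dm3, the counting tool, the use of strand and the handling of duplicates are not given in the sources used here. Without a stated spike-in scaling, changes are relative to the bulk of genes. Coordinates are the table's, with starts counted from 1, and its interval starts match GRCh38.p14 start sites as given in the report. From these counts, edgeR 4.0.16 (R 4.3.3) was run with filterByExpr (minimum count 10, minimum total 15; 431 genes removed), TMM factors (0.997 to 1.003) and 1 quasi-likelihood fit of all 6 libraries with a term per arm (3 residual degrees of freedom). Each gene's spread was drawn towards a trend over all genes, so tests and intervals use more degrees of freedom than the residual 3. The SE is the log2 fold change divided by the square root of F. The steps were tested on simulated data. DESeq2 1.42.0, limma 3.58.1 (voom) and other settings were alternatives.

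Same-numbered libraries deviated together from their arm means (correlation 0.419 to 0.492 over 13897 genes, for 3 pairs of arms). The series describes 2 independent experiments, although the labels do not state outright that the replicate number marks them. The replicate number was therefore used as a pairing only in the alternative fit with a replicate block. The main calls come from the fit without it. Named genes are the 9 members, up to 3 called genes per list, direction and contrast by adjusted p, and the 3 genes nearest in pattern to AKT1 and to AKT2; a gene the rule also names is not reported here. Members and lists were chosen with earlier results of these data known.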

Additional observations from a re-analysis of the deposited data

How the results depend on the processing

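Over 15 alternatives, the rises of PIK3CA and falls of AKT1 kept their direction under both drugs. For the 9 genes, the paired analysis (replicate block) called 7 under Degrader, 2 for GDC0068 and 2 for the drugs compared, and changed no member call beyond those given above. Fitting only the 4 libraries compared called 1 under GDC0068. With 1 library left out, where the lone library of an arm is assumed to vary like the others, 2 to 4 were called under Degrader and 0 to 1 under GDC0068. For the 86 further pathway genes, the block called 42, 24 and 15 (in the order of the 9 genes); DESeq2, limma voom and robust estimation each called 1 between the drugs. Leaving out 1 library gave 13 to 25 under Degrader and 2 to 6 under GDC0068. Over all genes, the block called 6114, 3540 and 2065, where leaving out 1 library gave 931 to 3217, 37 to 546 and 5 to 63; between the drugs DESeq2 called 141, robust estimation 116 and the 4 libraries 23. The sign turned in differences near 0 that were not called. For AKT2 under GDC0068 these were -0.00314 (DESeq2 size factors), -0.00318 (DESeq2 test), -0.00333 (no filter) and -0.00394 (4 libraries), and -0.0389 to 0.0374 with 1 library left out. PDPK1 under Degrader gave 0.000986 at a mean of at least 10 CPM and -0.0448 to 0.0334 with 1 library left out. Over the same omissions PHLPP1 ran from -0.00345 to 0.0223 under Degrader and from -0.0795 to 0.00656 under GDC0068, and PIK3R3 between the drugs from -0.127 to 0.0144. Among member differences that were not called and kept their sign, AKT2 (0.0653 to 0.140) and PIK3R3 (-0.189 to -0.0853) under Degrader also moved by over 1.5 times. So did PDPK1 (0.00251 to 0.0861), PIK3R3 (-0.146 to -0.00439) and INPP4B (0.0246 to 0.165) under GDC0068. Between the drugs PHLPP1 (0.00659 to 0.0928), PDPK1 (-0.0892 to -0.00290) and PIK3R1 (-0.140 to -0.0427) did as well. The cause of these changes was not tested. At 1490 or more counts, depth adds at most 2.59% counting error to a member's value.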
